A study of Homo sapiens and Mus musculus with 69 samples.

Results

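The libraries labelled H69 and H82 after doxycycline-induced NOTCH1 were compared across all genes, to ask how far 2 human small cell lung cancer (SCLC) cell lines differ once NOTCH1 has been switched on in both. The 6 libraries, 3 labelled H69_NOTCH1_dox and 3 labelled H82_NOTCH1_dox, were taken by their labels from 60 human libraries, in a series of 69 samples. They are bulk polyA RNA-Seq libraries, and 14531 of the 20516 genes in the human data reached the level required for testing. Both groups carried a lentiviral vector that expresses the human NOTCH1 intracellular domain when doxycycline is added, and both had received doxycycline. These groups are called the H69 and H82 end states here. The difference between them was set against the difference between untransduced cells of the same lines without doxycycline (H69_parental and H82_parental, 3 libraries each). The remaining state, the vector cells without doxycycline (H69_NOTCH1_no_dox and H82_NOTCH1_no_dox, 3 libraries each), also entered the statistical model. By the study's description H82 belongs to the *NEUROD1* type of SCLC, and only cells that had become adherent were collected after doxycycline. The labels give neither the time on doxycycline nor the origin of replicate libraries. The study reports long-term induction in both lines, for longer in H69 than in H82, but the labels tie no time to a library. A line therefore cannot be told apart from its time in culture. *P* values measure the spread between libraries, which may be technical.

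SCLC is a neuroendocrine cancer whose cells use lineage transcription factors such as NEUROD1 to run a neuronal secretory program. When a ligand on a neighboring cell engages a Notch receptor, the intracellular domain of the receptor is freed, joins the DNA-binding protein RBPJ in the nucleus and switches on repressors of the HES and HEY families. Notch activity in SCLC is known to lower the neuroendocrine program, partly through the repressor REST, and to give attached cells with mesenchymal features.

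Values are log2(RPKM + 1), where RPKM is reads scaled for gene length and library size, and each difference is H69 minus H82 on this scale, which understates differences of low genes. A gene was called when its limma adjusted *P* was below 0.05 and the difference was at least 1. Library totals cannot be read from these values, but read steps in the low values gave depths, relative to the median human library, of 0.738 to 0.756 in the H69 end state libraries and 1.27 to 1.34 in those of H82, so low genes are measured more coarsely in H69. Between H69 end state libraries 53 and 54 the mean squared difference was 1.60 to 1.76 times that of read sampling and did not grow with the reads of a gene, whereas between H82 end state libraries it reached 22.2 times in genes of 150 to 800 reads. Within the parental and the vector groups of H82 without doxycycline it reached 65.1 times in such genes. Counted as 1 sample, libraries 53 and 54 gave 4305 end state calls in place of 4357, and all 3 counted as 1 gave 3933. Library 52 stood close to both. The H82 end state libraries spread more, with a median SD over genes of 0.243 against 0.0686 in H69. In bulk RNA, fewer cells of a type and less RNA per cell cannot be told apart.

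Across 14531 genes, the mean H69 end state correlated with its own parental mean at *r* = 0.764 and with parental H82 at *r* = 0.820, whereas the H82 end state correlated with its own parental mean at *r* = 0.875. The H69 end state correlated about as well with parental cells of H524, another line of the series, at *r* = 0.814. Its correlation was 0.881 with the H82 end state and 0.884 with H524 cells given the same vector and doxycycline. Genes are not independent replicates, and these values are given as descriptions. Of 15 genes at 3 or more in the H69 libraries without doxycycline, library 49 aside, and at 0.5 or less in untreated libraries of the other 3 lines, 4 stayed at 1 or more in all H69 end state libraries, against 13 of 17 such genes for H82. Of the 17 H82 genes 7 were at 1 or more in all H69 end state libraries, and of the 15 H69 genes 1 was so in those of H82. Some genes that separate the lines did keep their side. *UBB*, a polyubiquitin gene, read 9.60, 9.61 and 9.70 in the H69 end state and 0.60, 0 and 0 in that of H82, as in the parental cells. *FABP5*, a fatty acid-binding protein gene, read 7.24, 7.22 and 7.25 in H69 and was listed at 0 in all H82 libraries. *RBM41* did not separate the parental lines, at 5.81, 5.48 and 5.88 in H69 and 6.13, 6.60 and 6.82 in H82. It read 0, 0 and 1.61 in the H69 end state and 6.73, 6.84 and 6.72 in that of H82. The genotype of the cells was not tested, so H69 refers throughout to libraries labelled so.

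**Figure D1:**
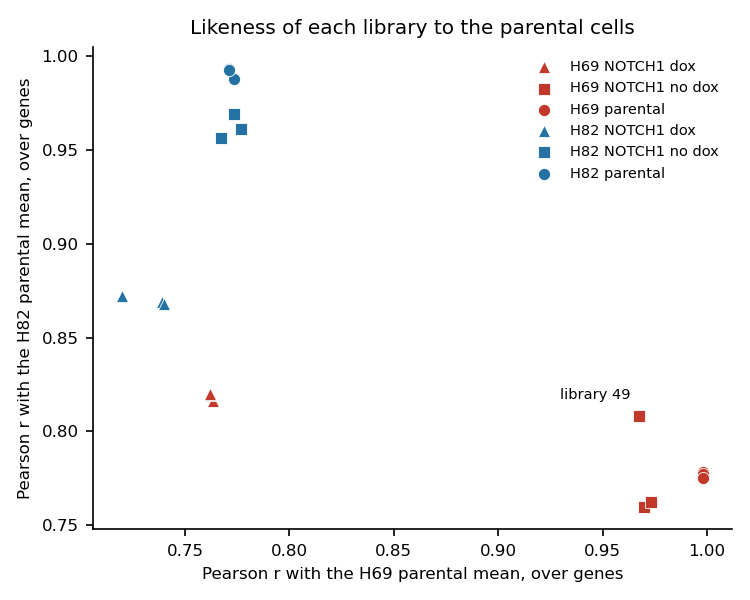
Pearson correlation over 14531 genes of each library with the mean of the 3 H69 parental libraries (horizontal axis) and with that of the 3 H82 parental libraries (vertical axis). Parental libraries are part of their own mean. The H69 end state libraries (red triangles) sit near 0.762 and 0.819, nearer to parental H82 than to parental H69. Their correlation with the parental mean of H524, not drawn, was 0.811 to 0.813. Library 49 stands apart from the other H69 libraries without doxycycline.

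The vector cells without doxycycline were not the same as the parental cells. *NEUROD1* read 5.03, 4.77 and 3.31 in parental H69 and 10.61, 8.88 and 8.69 in the vector cells without doxycycline. Library 49 of this group held *MSN*, encoding moesin, at 7.15, where its 2 companions read 1.60 and 2.07. Values in these cells are given below for some of the genes that they touch.

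The end states differed in fewer genes than the parental cells. Of the genes tested, 4357 (30.0%) were called between end states, 2095 (14.4%) higher in H69 and 2262 (15.6%) higher in H82. Between the parental cells 6499 (44.7%) were called, 3175 (21.8%) higher in H69 and 3324 (22.9%) higher in H82. The SD over genes of the difference was 1.25 between end states and 1.73 between parental cells, a ratio of 0.727, and 194 against 546 genes differed by at least 4. From parental cells to end state, 2866 genes (19.7%) rose and 2738 (18.8%) fell in H69, and 2103 (14.5%) rose and 1648 (11.3%) fell in H82, and rise and fall are used below only of such calls. End state and parental differences correlated over genes at *r* = 0.246, which is a description across genes that share the same libraries within each state.

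Patterns were set apart, using the test of whether the end state difference departed from the parental one (6680 genes called, 46.0%). In 3176 genes (21.9%) a called parental difference had shrunk below the threshold with a called departure, and these are termed converged. In 1652 genes (11.4%) the difference was called in both states with the same sign (carried). In 1468 genes (10.1%) it was called in the end states, with a parental difference below the threshold and a called departure (emerged). Of these, 759 were higher in H69 and 709 higher in H82. In 577 genes (3.97%) the difference was called in both states with opposite signs (reversed), and H69 became the higher line in 208 of these and H82 in 369. Another 660 genes called in the end states, and 1094 called in the parental cells, met none of these definitions and have no class. With the vector cells without doxycycline as the baseline, 83.2% of the carried, 70.0% of the reversed, 72.5% of the emerged and 73.4% of the converged genes fell in the same class. Lists of genes are described below by their counts, beside these percentages and beside a median end state difference of -0.069 and a median parental difference of -0.078 over all genes tested.

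**Figure D2:**
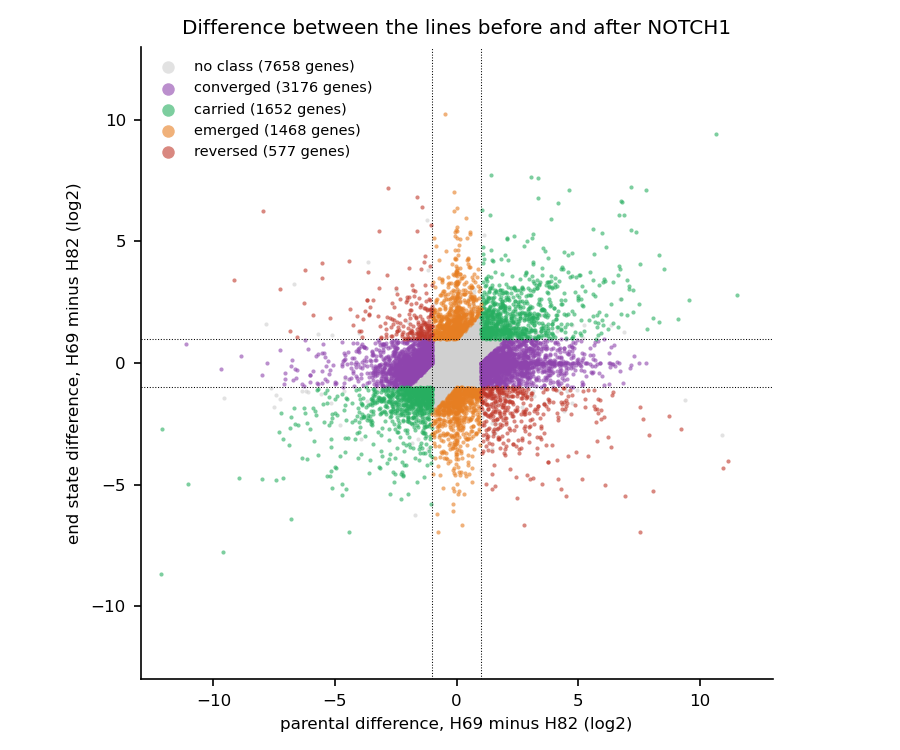
Each point is 1 of 14531 genes, with its parental difference (horizontal axis) and end state difference (vertical axis), both H69 minus H82 in log2 units. Dotted lines mark a difference of 1 in each direction. The cloud is wider along the parental axis, and colored genes are converged (3176), carried (1652), emerged (1468) or reversed (577).

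The Notch program had risen in both lines and stood higher in H69 for most of its targets. Of 9 Notch target genes tested, 7 rose in H69 and 6 in H82. After induction 6 of the 9 were higher in H69 and *HES1* alone was higher in H82, with a median difference of 2.02. In the parental cells 4 were higher in H69 and 2 in H82, with a median of 0.66. *NOTCH1* itself (chromosome 9, 139388885 to 139440500), whose reads can come from the vector or from the endogenous gene, read 8.07, 7.93 and 7.97 in H69 and 4.75, 4.26 and 5.56 in H82, without overlap, a difference of 3.13, SE 0.23, limma adjusted *P* = 1.66e-08. In parental cells it did not exceed 0.62 in any library. Vector cells without doxycycline read 0.38, 0.39 and 0.39 in H69 and 1.45, 0.88 and 1.15 in H82. The *NOTCH1* level thus differed between the end states, and its part in the differences below was not tested. In H82 cells that also carry a *REST* knockout, *NOTCH1* read 8.76, 9.15 and 10.74 with doxycycline, above the H69 values.

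The promoters of the target genes are shown because a Notch complex acts through RBPJ, whose commonest DNA letters are GTGGGAA. Each window runs from 250 bases before to 50 after the RefSeq start of the gene on GRCh38.p14, reads 5′ to 3′ along the gene, and has each match on either strand in capitals. *HES1* (chr3:194135898-194136197) and *HES4* (chr1:1000048-1000347, minus strand) ended on opposite sides, and *HES5* (chr1:2530214-2530513, minus strand) and *HEYL* (chr1:39639594-39639893, minus strand) were near 0 in one or both parental lines.
HES1: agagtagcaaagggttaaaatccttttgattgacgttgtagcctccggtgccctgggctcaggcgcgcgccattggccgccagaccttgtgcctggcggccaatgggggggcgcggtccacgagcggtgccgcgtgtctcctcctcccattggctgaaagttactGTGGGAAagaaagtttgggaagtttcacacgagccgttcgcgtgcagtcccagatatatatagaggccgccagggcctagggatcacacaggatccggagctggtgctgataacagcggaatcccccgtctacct
HES4: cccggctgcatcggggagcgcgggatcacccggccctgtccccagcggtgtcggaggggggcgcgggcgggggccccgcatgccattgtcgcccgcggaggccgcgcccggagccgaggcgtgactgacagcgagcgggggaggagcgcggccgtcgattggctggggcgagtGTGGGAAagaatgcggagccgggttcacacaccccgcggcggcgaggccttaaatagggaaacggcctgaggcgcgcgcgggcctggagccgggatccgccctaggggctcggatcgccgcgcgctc
HES5: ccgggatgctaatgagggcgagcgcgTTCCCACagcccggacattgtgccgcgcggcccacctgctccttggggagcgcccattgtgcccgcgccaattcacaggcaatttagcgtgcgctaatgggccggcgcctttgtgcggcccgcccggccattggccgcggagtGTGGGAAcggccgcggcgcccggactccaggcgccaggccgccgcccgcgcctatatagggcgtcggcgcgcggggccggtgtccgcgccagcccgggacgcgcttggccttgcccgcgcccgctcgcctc
HEYL: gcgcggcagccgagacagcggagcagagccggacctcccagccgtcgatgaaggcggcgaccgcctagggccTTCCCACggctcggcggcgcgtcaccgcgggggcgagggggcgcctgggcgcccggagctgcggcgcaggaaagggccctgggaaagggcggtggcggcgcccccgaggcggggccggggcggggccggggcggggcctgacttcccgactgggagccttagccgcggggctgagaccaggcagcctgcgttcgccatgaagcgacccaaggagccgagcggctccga
The *HES5* window holds 2 matches and the other windows 1 each. Of 8 target genes with a window, 5 held a match, against 6.28% of 27305 promoters in the table. Among all called genes with a window, 5.58% of those higher in H69 and 6.44% of those higher in H82 held one, beside 5.85% of all genes tested. A match is a description of the letters and not a binding site.

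*HES1*, a repressor of neuronal genes, read 3.76, 3.82 and 3.79 in the H69 end state and 6.16, 4.56 and 5.69 in that of H82, so all H82 libraries were higher (difference -1.68, SE 0.36, limma adjusted *P* = 0.000931). Its parental levels ran the other way, at 4.08, 4.40 and 4.16 in H69 and 1.48, 0.26 and 0.18 in H82. *HES1* thus rose in H82 and did not pass the test in H69, and the end state difference departed from the parental one by -5.25, SE 0.51, limma adjusted *P* = 3.14e-07. The *HES4* repressor gene rose in both lines with about the same gap, reading 5.85, 5.77 and 5.73 in H69 and 2.26, 2.85 and 3.27 in H82 (difference 2.99, SE 0.19, limma adjusted *P* = 3.64e-09; parental 3.00, SE 0.19, limma adjusted *P* = 1.84e-09). *HEYL*, a repressor gene of the HEY family, read 6.27, 6.24 and 6.21 in H69 and 3.52, 3.42 and 3.98 in H82. Its end state difference was 2.60, SE 0.19, limma adjusted *P* = 1.16e-08, although parental H82 had held more, at 2.50, 1.93 and 1.82 against 0.012, 0.074 and 0.022. *HES5* read 5.11, 4.96 and 4.96 in H69 and 2.82, 2.43 and 3.72 in H82 after being listed at 0 in parental H82. *NRARP*, a feedback inhibitor of Notch, reached 8.04, 7.97 and 7.95 in H69 and 4.12, 3.97 and 5.06 in H82 (difference 3.60, SE 0.23, limma adjusted *P* = 2.52e-09). *HEY1* was a target that came close, at 6.20, 6.25 and 6.16 in H69 and 5.05, 5.71 and 5.68 in H82, and was not called.

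**Figure D3:**
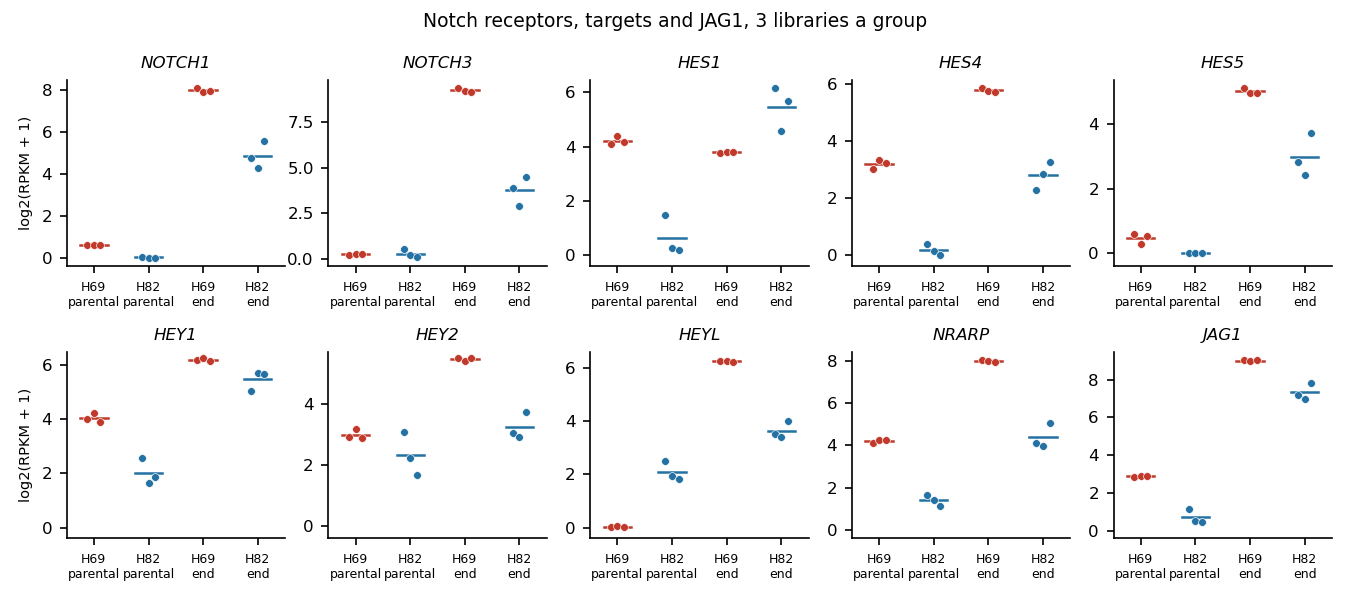
Level of 10 Notch genes, log2(RPKM + 1), in the 3 libraries (points) of each group, with the group mean as a line. Parental and end state groups of H69 are in red and those of H82 in blue. All genes but *HES1* were higher in the H69 end state libraries than in those of H82.

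Among receptors, *NOTCH3* showed the widest gap. It rose from 0.20, 0.26 and 0.26 to 9.36, 9.21 and 9.19 in H69 and from 0.52, 0.23 and 0.088 to 3.92, 2.89 and 4.51 in H82, an end state difference of 5.48, SE 0.27, limma adjusted *P* = 1.48e-10. *NOTCH2* differed little, at 4.62, 4.61 and 4.53 in H69 and 5.60, 4.44 and 5.12 in H82, with overlapping libraries. The parental lines had differed in most ligands, 6 of 7 being higher in H69 and 0 in H82, with a median of 3.16. In the end states 1 ligand was higher in H69 and 2 were higher in H82. *JAG1*, a Notch ligand that signals to neighboring cells, was the ligand higher in H69, at 9.03, 9.00 and 9.02 against 7.20, 6.97 and 7.84 (difference 1.68, SE 0.22, limma adjusted *P* = 1.01e-05). The delta ligand *DLL4* had reversed, from 6.03, 6.20 and 6.18 in parental H69 and 4.03, 1.07 and 0.77 in parental H82 to 2.51, 2.36 and 2.02 and 4.86, 3.89 and 5.14 in the end states. *DLL3*, a delta ligand that inhibits Notch within the cell, fell in both lines to 1.27, 1.25 and 1.5 and 1.00, 0.91 and 0.83.

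The neuroendocrine program fell in both lines, and what was left of it differed. Of 23 neuroendocrine effector genes, 21 fell and 1 rose in H69, while 14 fell and 3 rose in H82. Afterwards 10 were higher in H82 and 2 in H69, with a median difference of -0.43. In the parental cells 14 were higher in H69 and 1 in H82, with a median of 1.67. *PCSK1* (chromosome 5, 95726037 to 95769847), a prohormone convertase, read 1.28, 1.69 and 1.08 in the H69 end state and 6.50, 6.89 and 7.05 in that of H82. In parental cells it had read 8.60, 8.77 and 8.78 and 1.46, 2.05 and 1.91, so the lines exchanged places and the end state difference was -5.46, SE 0.25, limma adjusted *P* = 5.65e-11. *PCSK2*, the companion convertase, read 0.20, 0.19 and 0 in H69 and 3.33, 4.31 and 5.00 in H82. *SCG3*, a secretory granule protein gene, was about equal in the parental lines and read 4.12, 4.09 and 4.59 in H69 and 8.43, 9.62 and 8.41 in H82 afterwards (difference -4.55, SE 0.26, limma adjusted *P* = 7.94e-10). *UCHL1*, a neuronal deubiquitinase, remained high in both, at 6.98, 6.92 and 6.96 and 7.96, 8.74 and 7.71. *CHGA*, encoding the granule protein chromogranin A, had fallen to 0.028, 0.054 and 0.25 in H69 and 0.30, 0.34 and 0.58 in H82. *SYP*, encoding synaptophysin, was 1 of the 2 members higher in H69, at 1.96, 2.16 and 2.13 against 0.78, 0.94 and 1.26.

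Of 24 lineage transcription factors of neuroendocrine cells, 19 fell in H69 and 13 in H82. In the end states 5 were higher in the H69 end state and 2 in that of H82, while 16 and 4 had been called in the parental cells. *NEUROD1* had read 13.67, 13.20 and 13.07 in parental H82 and fell to 4.45, 4.33 and 5.38 in its end state, whereas it was listed at 0 in the H69 end state. The homeobox factor *OTX2* went from 0.034, 0.018 and 0.031 to 3.55, 3.55 and 3.51 in H69, and was at 4.66, 5.04 and 4.91 in the H82 end state. Its difference of -1.33 was not called in the model of all 18 libraries and was called (limma adjusted *P* = 0.000127) once library 49, which read 4.04 for *OTX2*, was left out. *SOX2*, a factor of stem and neuroendocrine cells, was kept in part in H69 alone, at 3.48, 3.45 and 3.40 against 0.025, 0 and 0.07 in H82 (difference 3.42, SE 0.11, limma adjusted *P* = 7.6e-13). *INSM1*, a neuroendocrine zinc finger factor, stood at 0, 0 and 0.038 and 0.23, 0.32 and 0.63. *REST*, the repressor of neuronal genes, rose from 0, 0.12 and 0.10 to 5.54, 5.46 and 5.52 in H69, and read 6.48, 6.13 and 6.33 in the H82 end state, which was higher by less than the threshold.

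The parental lines had differed across nearly the whole epithelial list, and most of that difference had gone or turned. Epithelial genes fell in H69 (23 of 31, with 6 that rose) and rose in H82 (11, with 0 that fell). Of 31 epithelial genes, 28 had been higher in parental H69 and 0 in parental H82, with a median of 4.03. With NOTCH1 on, 5 were higher in H69 and 9 in H82, with a median of -0.32, and 9 of the genes were in the reversed class. *ESRP1* (chromosome 8, 95653302 to 95719694), a splicing regulator of epithelial cells, read 10.02, 10.13 and 10.05 in parental H69 and 5.74, 4.88 and 4.04 in parental H82. In the end states it was 0.84, 1.73 and 1.11 in H69 and 6.27, 6.09 and 5.70 in H82, without overlap (difference -4.79, SE 0.49, limma adjusted *P* = 7.58e-07). The keratin gene *KRT18* rose in both lines, to 7.83, 7.89 and 7.89 in H69 and 10.50, 10.32 and 10.60 in H82, and its partner *KRT8* reached 7.94, 7.98 and 8.05 and 9.86, 9.81 and 10.01. *KRT17*, a keratin of basal and injured epithelium, was at or near 0 in most parental libraries and read 8.00, 7.95 and 8.06 in H69 and 13.24, 13.08 and 13.09 in H82 (difference -5.13, SE 0.42, limma adjusted *P* = 5.76e-08). *KRT5*, the keratin of basal cells, was high only in H69, at 6.07, 6.20 and 6.10 against 0.25, 0 and 0.24 (difference 5.96, SE 0.20, limma adjusted *P* = 1.21e-12). *CDH1*, encoding E-cadherin, was low in both end states, at 0.23, 0.17 and 0.066 and 0.87, 0.50 and 0.33.

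Mesenchymal genes rose in both lines, 31 of 35 in H69 and 26 in H82, and stood higher in H69. Of the 35, 22 were higher in the H69 end state and 3 in that of H82, with a median difference of 1.97. In the parental cells the counts were 10 and 7, with a median of -0.20. *SERPINH1* (chromosome 11, 75273101 to 75283828), the collagen chaperone, had the largest end state difference of any gene named by rule, at 10.65, 10.59 and 10.54 in H69 and 0.46, 0.20 and 0.43 in H82 (difference 10.23, SE 0.45, limma adjusted *P* = 3.81e-11). The parental cells had read 4.71, 5.18 and 5.27 and 6.48, 5.07 and 5.08, so it rose in H69 and fell in H82. It was already low in H82 vector cells without doxycycline, at 0.12, 0.83 and 0.13. *THY1* (chromosome 11, 119286186 to 119295695), the fibroblast surface protein CD90, read 6.89, 6.81 and 6.84 in the H69 end state and was listed at 0 in all 3 H82 libraries. It had been the higher in parental H82, at 3.91, 3.71 and 3.56 against 2.14, 2.15 and 1.96, and read 0, 0 and 0.064 in H82 vector cells without doxycycline. *FN1*, encoding fibronectin, read 7.77, 7.76 and 7.76 in H69 and 4.07, 2.89 and 3.63 in H82 (difference 4.23, SE 0.24, limma adjusted *P* = 7.37e-10). *VIM*, encoding vimentin, read 9.06, 9.09 and 9.08 in H69 and 6.84, 6.23 and 6.37 in H82, where the parental H82 cells had held more of it, at 4.22, 2.85 and 3.29 against 0.022, 0 and 0. *TIMP3*, an inhibitor of matrix proteases, was among the 3 members higher in H82, at 7.18, 6.91 and 6.91 against 2.78, 2.71 and 2.64. *AXL*, a receptor kinase of mesenchymal cells, and *CDH2*, encoding N-cadherin, were not called. *AXL* read 8.54, 8.48 and 8.50 in H69 and 8.02, 7.50 and 8.09 in H82, and 0.12, 2.92 and 3.43 in H82 vector cells without doxycycline.

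Of 10 factors that drive epithelial-mesenchymal transition, 4 were higher in H69 and 0 in H82. *PRRX1* (chromosome 1, 170631869 to 170708562), a homeobox factor of mesenchyme, was at or below 0.079 in all parental libraries and read 4.73, 4.80 and 4.84 in H69 against 0.10, 0.094 and 0.19 in H82 (difference 4.67, SE 0.068, limma adjusted *P* = 2.05e-16). *FOXC1*, a forkhead factor, read 5.47, 5.38 and 5.49 in H69 and 1.29, 0.90 and 1.28 in H82. *SNAI2* was high in both lines, at 6.98, 6.98 and 6.95 and 5.73, 6.52 and 6.74, and was not called. *TWIST1* had been higher in parental H69 and stayed so, at 2.84, 2.80 and 2.86 against 0.33, 0.18 and 0.36.

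Collagen genes also rose in both lines, 18 of 31 in H69 and 19 in H82. In the comparison of end states 18 were higher in the H69 end state and 5 in that of H82, with a median of 1.96, against 11 and 4 and a median of 0.32 in the parental cells. *COL1A2* (chromosome 7, 94024207 to 94060539), one of the chains of type I collagen, read 7.64, 7.59 and 7.58 in H69 and was listed at 0 in all H82 end state libraries. Its partner chain *COL1A1* rose in both lines, to 11.09, 10.97 and 10.97 in H69 and 7.05, 6.27 and 7.03 in H82 (difference 4.23, SE 0.56, limma adjusted *P* = 1.24e-05). The type I chains therefore parted in H82, where *COL1A1* was abundant and *COL1A2* was not listed above 0. *COL1A2* had stood higher in H69 vector cells without doxycycline than in the parental cells, at 6.52, 7.21 and 7.20 against 3.75, 3.66 and 3.55. *COL3A1*, the type III chain, was listed at 0 in all parental libraries and reached 13.56, 13.52 and 13.50 in H69 and 10.93, 9.94 and 10.79 in H82. Its H82 vector cells without doxycycline read 0, 5.06 and 5.26, and those cells read 0.34, 3.32 and 3.57 for *COL1A1*. *COL14A1* read 9.90, 9.88 and 9.89 in H69 and 4.08, 3.02 and 3.77 in H82 (difference 6.27, SE 0.20, limma adjusted *P* = 1.03e-12), and *COL6A2* 8.07, 7.91 and 7.93 and 2.73, 2.19 and 3.02. *COL8A1* went the other way, at 7.03, 7.02 and 7.16 in H69 and 9.05, 7.88 and 8.62 in H82. *ACAN*, encoding the cartilage proteoglycan aggrecan, was listed at 0 in all parental libraries and read 6.73, 6.57 and 6.66 in H69 and 0.27, 0.10 and 0.45 in H82.

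Contractile genes of smooth muscle rose in both lines, 19 of 19 in H69 and 16 in H82. Of the 19, 9 were higher in the H69 end state and 0 in that of H82, with a median of 1.00, whereas 1 and 2 had been called in the parental cells. *ACTA2*, smooth muscle actin, rose from 0.10, 0.28 and 0.17 to 11.38, 11.35 and 11.39 in H69 and from 0, 0.036 and 0 to 10.46, 10.30 and 10.29 in H82. *MYOCD*, the coactivator of this program, was listed at 0 in the parental cells and read 2.38, 3.27 and 3.16 in H69 and 0.67, 0.53 and 0.79 in H82. *MYH11*, smooth muscle myosin, read 8.00, 7.92 and 8.00 and 5.55, 4.09 and 5.79 (difference 2.83, SE 0.31, limma adjusted *P* = 1.66e-06). *CNN1*, encoding calponin, was equal within the spread, at 5.94, 5.94 and 6.08 in H69 and 6.09, 6.39 and 5.86 in H82. Among 25 integrins and laminins, 12 were higher in H69 and 6 in H82. *ITGA7* read 6.99, 6.80 and 6.90 in H69 and 2.61, 2.27 and 3.13 in H82, while *ITGAV* read 5.30, 5.40 and 5.40 and 7.57, 7.94 and 7.37.

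**Figure D4:**
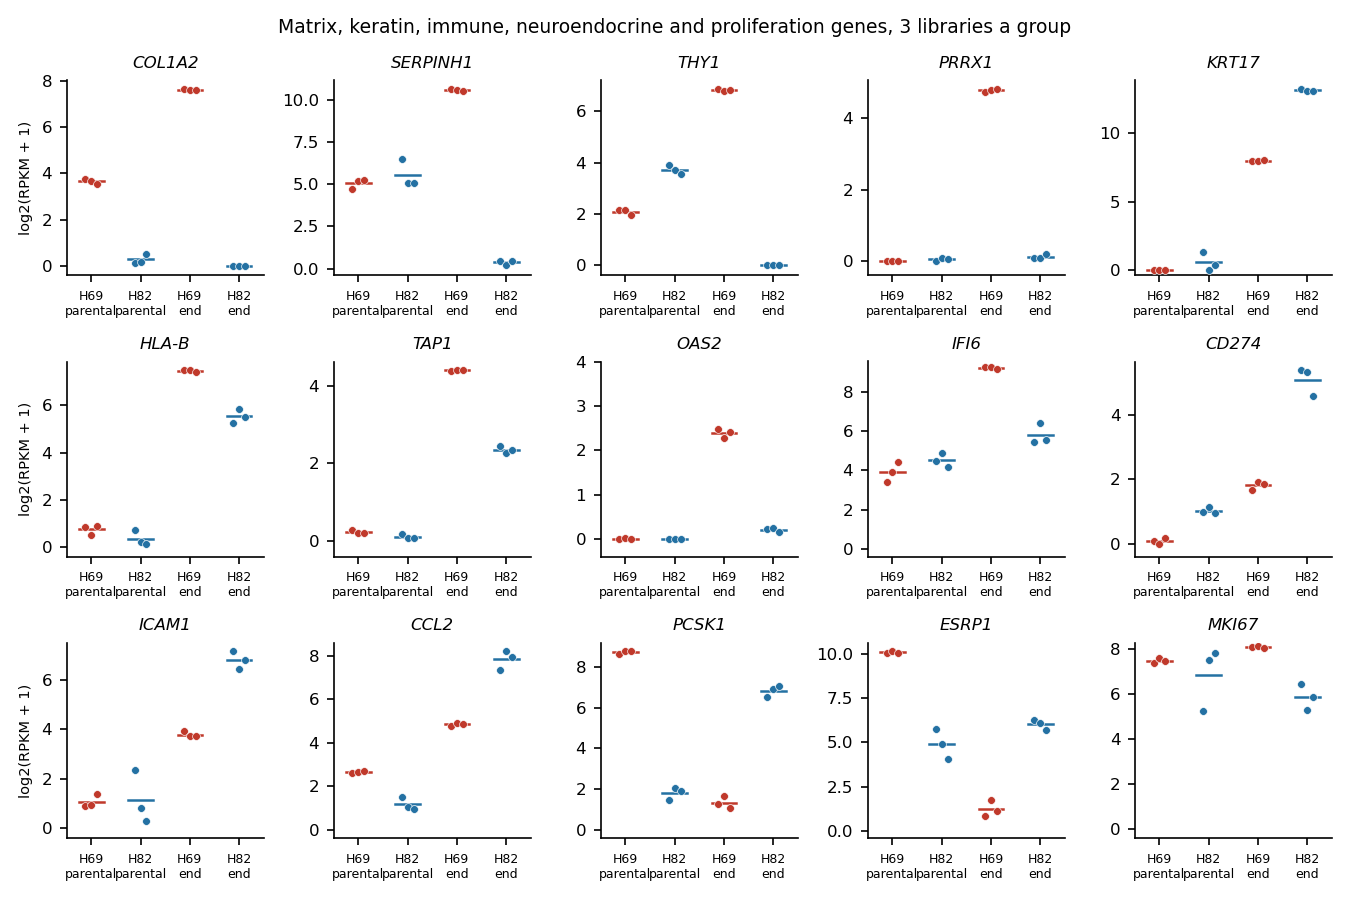
Level of 15 genes, log2(RPKM + 1), in the 3 libraries (points) of each group, with the group mean as a line. Matrix genes and *HLA-B*, *TAP1*, *OAS2* and *IFI6* were higher in the H69 end state (red), while *KRT17*, *CD274*, *ICAM1*, *CCL2*, *PCSK1* and *ESRP1* were higher in that of H82 (blue).

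Of 21 genes of MHC class I and peptide loading, 13 rose in H69 and 13 rose in H82, and the end state levels were mostly higher in H69. Between the end states 10 were higher in H69 and 2 in H82, with a median of 0.97. In the parental cells 5 and 3 were called, with a median of 0.33. *TAP1* (chromosome 6, 32812986 to 32821593), a chain of the peptide transporter, was at or below 0.29 in the parental libraries and read 4.38, 4.40 and 4.40 in H69 and 2.45, 2.26 and 2.35 in H82 (difference 2.04, SE 0.078, limma adjusted *P* = 7.3e-12). *HLA-B* read 7.47, 7.47 and 7.39 in H69 and 5.25, 5.85 and 5.51 in H82 (difference 1.91, SE 0.17, limma adjusted *P* = 1.96e-07). The gap depended on the H82 cells used. With doxycycline, *HLA-B* read 8.04, 7.60 and 6.53 in H82 cells with a *REST* knockout and 2.10, 1.98 and 2.77 with a *STING* knockout. *NLRC5*, the activator of class I genes, read 2.68, 2.53 and 2.71 in the H69 end state and 0.87, 0.78 and 0.96 in that of H82 (difference 1.77, SE 0.071, limma adjusted *P* = 1.1e-11). Chaperones of the endoplasmic reticulum that assist loading were higher in H69 too, *CALR* at 10.40, 10.39 and 10.35 against 8.26, 8.16 and 8.09 and *PDIA3* at 11.82, 11.88 and 11.84 against 10.21, 9.92 and 10.09. *B2M*, the shared light chain, overlapped between the lines, at 9.05, 9.14 and 9.16 in H69 and 7.93, 9.31 and 7.95 in H82. *TAPBPL*, an editor of the peptides loaded, fell in H69 and rose in H82, to 0, 0.18 and 0.47 and 3.00, 2.74 and 3.16 (difference -2.75, SE 0.28, limma adjusted *P* = 7.49e-07). Of 9 MHC class II genes tested, 0 were higher in H69 and 2 were higher in H82, a share of 22.2% beside 30.0% over all genes.

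Where called, sensors of nucleic acid and interferon-stimulated genes were more often higher in H69 than in H82. Of 15 sensing genes, 5 were higher in H69 and 0 in H82, with a median of 0.56. The share called, 33.3%, was near the 30.0% over all genes tested, and 2 and 1 had been called in the parental cells. *TMEM173*, which encodes STING, read 2.75, 2.79 and 2.66 in H69 and 1.07, 1.17 and 1.10 in H82 (difference 1.62, SE 0.09, limma adjusted *P* = 5.69e-10). *IFI16*, a DNA sensor, read 4.26, 4.33 and 4.22 and 0.67, 0.79 and 0.37. *TLR3*, a sensor of double-stranded RNA, rose in both, to 4.57, 4.46 and 4.57 in H69 and 3.79, 4.75 and 4.67 in H82. Of 36 interferon-stimulated genes, 30 rose in H69 and 24 in H82. Between the end states 15 were higher in H69 and 6 in H82, with a median of 0.16, against 8 and 8 in the parental cells. *IFI6* (chromosome 1, 27992575 to 27998723) read 9.26, 9.25 and 9.19 in H69 and 5.43, 6.40 and 5.53 in H82 (difference 3.44, SE 0.47, limma adjusted *P* = 1.71e-05). *OAS2*, a synthetase of the antiviral response, read 2.48, 2.27 and 2.41 and 0.22, 0.25 and 0.15 from values near 0 in the parental cells (difference 2.18, SE 0.067, limma adjusted *P* = 5.19e-13). *MX1*, an antiviral GTPase gene, read 1.51, 1.69 and 1.68 in H69 and was listed at 0 in H82. *IFIT2*, *IFITM1* and *IFITM2* went the other way, with *IFIT2* at 1.07, 1.12 and 1.06 in H69 and 3.12, 2.89 and 2.83 in H82 (difference -1.86, SE 0.081, limma adjusted *P* = 2.73e-11). *IFITM2*, a membrane protein that blocks viral entry, read 6.04, 5.52 and 6.10 in H69 and 8.51, 8.40 and 8.65 in H82.

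Checkpoint and natural killer cell ligands split. Of 18 tested, 7 were higher in H69 and 6 in H82, 72.2% of the list against 22.2% in the parental cells. *CD274* (chromosome 9, 5450503 to 5470566), which encodes PD-L1, read 1.69, 1.91 and 1.87 in H69 and 5.39, 5.33 and 4.58 in H82 (difference -3.28, SE 0.17, limma adjusted *P* = 2.6e-10; parental -0.94, SE 0.17, limma adjusted *P* = 0.000146). With a pseudocount of 0.1 its parental difference was called, at -2.86 (limma adjusted *P* = 1.65e-06). *ICAM1*, an adhesion ligand of T cells, was at 3.92, 3.71 and 3.72 in H69 and 7.13, 6.41 and 6.77 in H82 (difference -2.99, SE 0.45, limma adjusted *P* = 3.94e-05). *CD276*, which encodes B7-H3, was the reverse, at 6.05, 6.00 and 6.01 against 4.62, 4.34 and 4.48, as were the natural killer cell ligands *MICA*, at 3.35, 3.31 and 3.52 against 1.31, 1.72 and 1.09, and *MICB*. Among 16 chemokines and cytokines, 4 were higher in H69 and 5 in H82. *CCL2*, which draws monocytes, read 4.76, 4.92 and 4.86 in H69 and 7.35, 8.23 and 7.96 in H82 (difference -3.0, SE 0.24, limma adjusted *P* = 4.34e-08), and *CXCL12*, the ligand of CXCR4, 6.93, 6.87 and 6.93 and 3.79, 3.87 and 5.02. In H69 *CCL2* already read 4.03, 4.83 and 4.92 in vector cells without doxycycline.

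The promoters of *IFI6* (chr1:27672143-27672442, minus strand) and *CD274* (chr9:5450292-5450591) are shown since both genes rose in both lines and ended on opposite sides. The capitals mark GAAA, 2 bases of any kind and GAAA again, on either strand, the core letters of an interferon response element, in windows of the same kind and build.
IFI6: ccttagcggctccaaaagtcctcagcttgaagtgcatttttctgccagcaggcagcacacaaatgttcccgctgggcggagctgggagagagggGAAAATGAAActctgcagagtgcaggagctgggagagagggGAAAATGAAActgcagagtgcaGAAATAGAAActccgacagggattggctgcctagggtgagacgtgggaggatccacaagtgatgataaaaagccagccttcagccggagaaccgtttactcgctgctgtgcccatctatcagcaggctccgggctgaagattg
CD274: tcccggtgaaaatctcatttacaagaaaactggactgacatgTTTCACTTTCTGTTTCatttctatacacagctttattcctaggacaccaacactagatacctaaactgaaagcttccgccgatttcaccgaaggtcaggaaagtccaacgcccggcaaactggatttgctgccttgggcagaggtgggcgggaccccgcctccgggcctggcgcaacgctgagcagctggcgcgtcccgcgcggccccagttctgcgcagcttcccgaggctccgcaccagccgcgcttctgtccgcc
The *IFI6* window holds 3 matches and the *CD274* window 2 that overlap. Of 29 interferon-stimulated genes with a window 19 held a match, and of 18 class I genes 9, against 3.65% of 27305 promoters. Of called genes with a window, 3.81% of those higher in H69 and 2.60% of those higher in H82 held one, beside 2.79% of all genes tested.

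**Figure D5:**
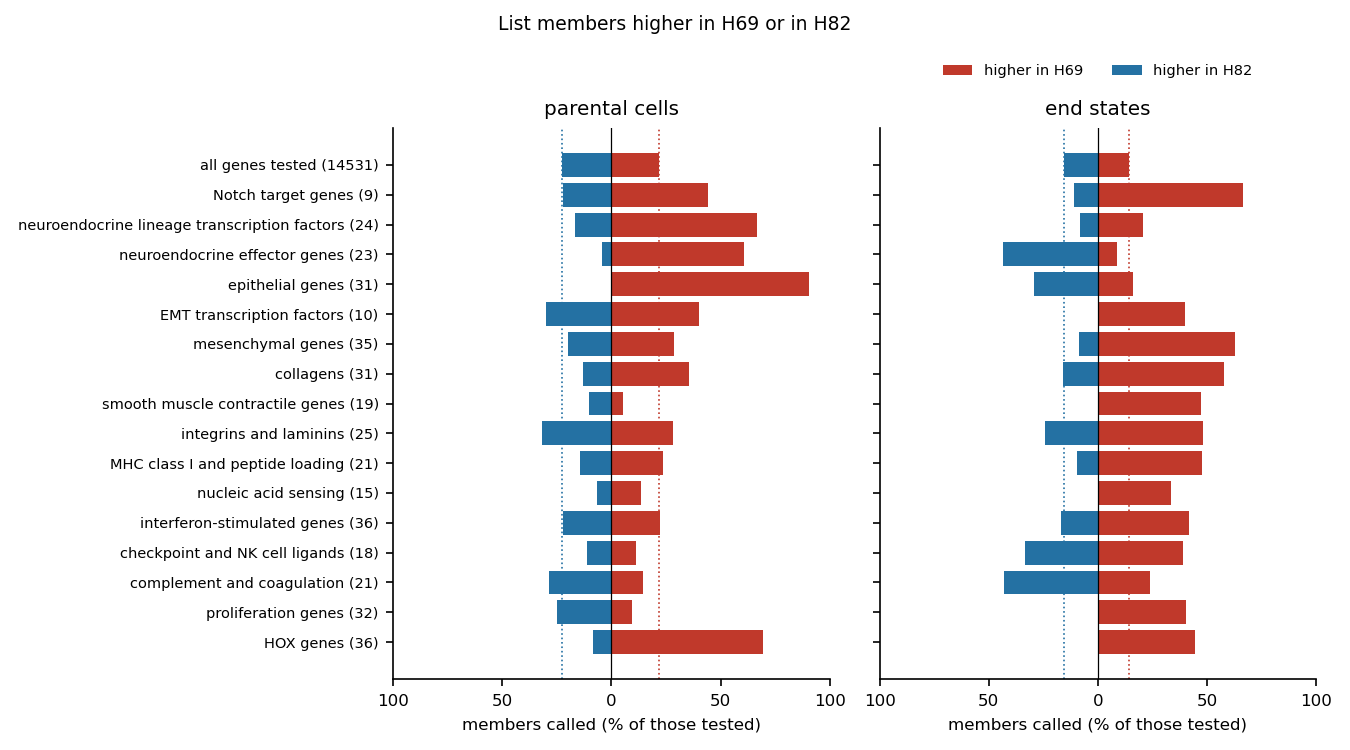
Share of each list's tested genes called higher in H69 (red, to the right) or in H82 (blue, to the left), for parental cells (left panel) and end states (right panel). Numbers in parentheses are genes tested, and dotted lines mark the shares over all 14531 genes. Of 31 epithelial and 23 neuroendocrine effector genes, 28 and 14 were higher in H69 in the parental cells. In the end states 9 and 10 of them were higher in H82, 5 and 2 in H69, and 17 and 11 were not called. By contrast, 22 of 35 mesenchymal and 13 of 32 proliferation genes were higher in the H69 end state.

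The difference between the lines in *MYC*, a growth-promoting transcription factor, had converged. It had read 1.81, 1.99 and 2.13 in parental H69 and 9.20, 8.71 and 9.15 in parental H82, and the end states read 6.84, 6.82 and 6.84 and 7.17, 7.09 and 7.51. H69 vector cells without doxycycline read 6.75, 1.35 and 1.04, the first being library 49. *MYCN*, the family member of parental H69 at 6.59, 6.79 and 6.66, fell to 0.037, 0.054 and 0.054 there and stood at 1.36, 0.90 and 1.48 in the H82 end state. In H69 *MYCN* thus fell and *MYC* rose.

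Of 32 proliferation genes, 5 rose and 3 fell in H69, while 0 rose and 10 fell in H82. Of the same genes 13 were higher in the H69 end state and 0 in that of H82, with a median of 0.81. In the parental cells 3 were higher in H69 and 8 in H82, with a median of -0.17. *FOXM1*, a transcription factor of mitosis, read 5.53, 5.50 and 5.45 in H69 and 3.04, 2.83 and 2.79 in H82 (difference 2.61, SE 0.16, limma adjusted *P* = 1.97e-09). The proliferation marker *MKI67* read 8.12, 8.14 and 8.08 in H69 and 6.48, 5.31 and 5.87 in H82 (difference 2.23, SE 0.47, limma adjusted *P* = 0.000782). *MCM2*, a replication licensing gene, was higher in H82 by less than the threshold, at 5.76, 5.08 and 5.64 against 4.64, 4.51 and 4.61. Of 15 CDK inhibitor, D cyclin and *RB1* genes, 5 were higher in H69 and 0 in H82, a share of 33.3% beside 30.0% over all genes. *CDKN2A*, a CDK inhibitor gene that is high in cells without RB1, read 6.37, 6.39 and 6.41 in H69 and 3.70, 3.87 and 3.44 in H82. *CDKN1A*, which encodes p21, had differed widely in the parental cells and was close in the end states, at 4.36, 4.23 and 4.29 and 3.88, 3.42 and 3.40.

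Among 20 cell death genes, 2 were higher in H69 and 5 in H82, or 35% of the list beside 30.0% over all genes tested. *MLKL*, the effector of necroptosis, read 4.67, 4.27 and 4.62 in H69 and 0.89, 1.75 and 1.18 in H82 (difference 3.25, SE 0.31, limma adjusted *P* = 3.78e-07). *CASP8* was the other gene higher in H69. *DFNA5*, which encodes gasdermin E, a pore protein of pyroptosis, was higher in H82, at 3.92, 4.38 and 3.76 against 2.54, 2.18 and 2.47. The survival gene *MCL1* read 6.00, 6.00 and 6.01 in H69 and 7.27, 7.05 and 7.49 in H82, and *BCL2L1* 5.32, 5.42 and 5.26 and 7.23, 6.84 and 6.88.

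Signaling genes also parted by member. Of 35 genes of the TGF-beta and BMP pathway, 10 were higher in H69 and 6 in H82. Ligand genes differed in both directions, with *TGFB1* at 7.65, 7.58 and 7.50 in H69 and 2.51, 2.29 and 2.47 in H82 (difference 5.15, SE 0.32, limma adjusted *P* = 2.45e-09). *TGFB2* went the other way, at 5.34, 5.41 and 5.30 in H69 and 8.75, 8.27 and 8.18 in H82 (difference -3.05, SE 0.33, limma adjusted *P* = 1.51e-06). *BMP4* was also higher in H82, at 4.77, 4.24 and 4.27 against 1.30, 1.09 and 1.07. Of 36 WNT pathway genes, 9 were higher in H69 and 8 in H82, with *WNT2B*, a WNT ligand, at 0.51, 0.87 and 0.57 and 4.72, 4.38 and 4.96. *SFRP2*, a secreted WNT modulator, was listed at 0 in all parental and H82 end state libraries and read 5.77, 5.72 and 5.33 in the H69 end state. Of 39 receptor tyrosine kinase genes, 7 and 4 were called, which is near the share over all genes. *KDR*, a receptor for vascular endothelial growth factor, was listed at 0 in the H69 end state and read 4.45, 4.38 and 4.97 in that of H82. Of 12 AP-1 factors, 5 were higher in H69 and 3 in H82, with *FOSL1* at 7.20, 7.17 and 7.22 against 5.02, 4.01 and 3.66 and *MAFF* at 1.32, 1.27 and 1.47 against 4.20, 3.77 and 4.10. Of 22 genes of the YAP, TAZ and TEAD group, 3 were higher in H69 and 6 in H82. *YAP1* itself was close, at 7.39, 7.46 and 7.43 and 7.07, 6.84 and 6.88, and its target *CYR61* read 6.98, 6.87 and 6.87 and 8.82, 9.09 and 9.02.

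*HOX* genes, which mark position along the body axis, differed less often than in the parental cells, and those called were all higher in H69. Of 36 *HOX* genes, 16 were higher in the H69 end state and 0 in that of H82, and 25 and 3 had been called in the parental cells. By class 12 were carried, 14 converged and 4 emerged, and 19 fell and 7 rose in H69. *HOXB2* fell in H69 from 8.15, 8.61 and 8.47 to 5.51, 5.71 and 5.88 and stood at 0.89, 1.60 and 1.30 in the H82 end state. *HOXC12* was among those that emerged, listed at 0 in parental H69 and at 4.40, 4.58 and 4.49 in its end state, against 0.27, 0.21 and 0.20 in that of H82. Of 15 cancer testis antigens, 12 had been higher in parental H82 and 0 in parental H69, while 2 were higher in the H69 end state and 4 in that of H82, and 8 had risen in H69. *MAGEA1* was listed at 0 in parental H69 and read 7.42, 7.69 and 7.57 in its end state, beside 6.14, 7.00 and 6.35 in H82. Its call in the end states was lost when any H69 library was left out. *PAGE5*, by contrast, was listed at 0 in all H69 libraries.

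On and off genes marked the ends of the range. At a level of 3 or more in every library of one end state and 0 in every library of the other, 13 genes were H69 genes and 21 were H82 genes. Of these, 5 and 7 had also been at 0 in the parental cells of the line that lacked them. *UBD*, a ubiquitin-like modifier induced by inflammatory cytokines, emerged in H82 at 6.03, 7.45 and 6.56 and was listed at 0 in H69. The other genes of this paragraph did not meet that on and off rule. *HKDC1*, a hexokinase-like gene, emerged in H82 at 6.38, 5.71 and 5.96 against 0.14, 0.17 and 0.31 in H69 (difference -5.81, SE 0.14, limma adjusted *P* = 3.32e-14). *PLA2G2A*, a secreted phospholipase, read 7.63, 9.27 and 9.31 in H82 and 2.73, 2.54 and 2.70 in H69. *NPPB*, encoding B-type natriuretic peptide, read 8.07, 9.12 and 7.73 in H82 and 0.99, 1.65 and 1.44 in H69. *EMILIN1*, an elastic fiber glycoprotein, emerged in H69 at 7.40, 7.29 and 7.28 against 0.25, 0.12 and 0.50 in H82 (difference 7.03, SE 0.12, limma adjusted *P* = 3.86e-16). *MEST*, an imprinted gene, had reversed, from 8.21, 8.30 and 8.26 in parental H69 and 0.15, 0.15 and 0.28 in parental H82 to 1.26, 1.52 and 1.44 and 6.67, 6.81 and 6.50. *PTGER2*, a prostaglandin E2 receptor, reversed toward H69, at 8.43, 8.36 and 8.31 in the H69 end state and 0.44, 1.72 and 1.33 in that of H82, from 0.33, 0.34 and 0.94 and 3.31, 3.20 and 3.58. Of the converged genes, *MSN* had the largest parental difference of those named by rule. It went from 0, 0.38 and 0 to 11.73, 11.72 and 11.69 in H69, beside 11.12, 10.84 and 10.82 in the H82 end state.

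Of 21 complement and coagulation genes, 13 rose in H69 and 12 in H82. In the end states 5 were higher in H69 and 9 in H82. *CFI*, a protease that inactivates complement, read 4.49, 4.42 and 4.98 in H82 and 0.88, 1.67 and 0.86 in H69 (difference -3.50, SE 0.22, limma adjusted *P* = 2.77e-09). *C4A* and *C4B*, near-identical copies between which reads may be split, were both higher in H82. Among 24 surface targets of antibody-based agents, 6 were higher in each line. *FOLR1*, the folate receptor, read 4.40, 4.82 and 4.37 in H82 and 0.51, 0.39 and 0.074 in H69 (difference -4.20, SE 0.40, limma adjusted *P* = 3.55e-07). *MSLN*, encoding mesothelin, read 4.83, 3.28 and 4.04 in H82 and 0.76, 0.54 and 0 in H69. *LRRC15*, a surface protein of matrix-producing fibroblasts, read 5.54, 5.31 and 5.22 in H69 and 3.07, 2.96 and 3.48 in H82.

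Markers of other cell types were not at 0 in either end state. The summed level of 12 basal and squamous markers ranged from 23.4 to 25.3 in H69 and from 18.1 to 19.2 in H82, 2 and 3 of them being at 0 in all libraries. In the parental cells it ranged from 11.6 to 13.2 in H69 and from 0.42 to 2.66 in H82. For 15 neural crest, glial and melanocyte markers the sums were 15.8 to 16.6 in H69 and 24.3 to 26.8 in H82, with 3 and 0 at 0. The parental sums of these markers were 15.7 to 16.4 in H69 and 17.7 to 22.1 in H82. Of the 10 of these markers tested, 3 were higher in the H69 end state and 5 in that of H82. *MITF*, the melanocyte regulator, read 0.89, 1.19 and 1.00 in H69 and 4.90, 4.63 and 4.58 in H82 (difference -3.68, SE 0.13, limma adjusted *P* = 2.24e-12). *PMEL*, a pigment granule protein gene, read 0.19, 0.10 and 0.30 in H69 and 4.24, 4.21 and 4.43 in H82. The melanin enzyme gene *TYR* was listed at 0 in H69 and read 2.67, 2.86 and 3.61 in H82. *NGFR*, a nerve growth factor receptor of neural crest cells, was higher in H69, at 6.94, 6.80 and 6.64 against 1.62, 2.19 and 2.70. Sums for 11 endothelial markers did not overlap, being 16.0 to 16.8 in H69 and 17.1 to 18.9 in H82, and those for 14 blood cell markers were 15.3 to 16.3 and 10.9 to 11.2. The parental sums were 10.0 to 10.3 and 0.73 to 2.37 for endothelial markers and 10.7 to 13.0 and 5.21 to 7.75 for blood cell markers. The part of other cell types in the results was not tested.

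The choice of H82 cells touched the comparison. When H82 vector cells with a *REST* knockout and doxycycline stood for the H82 end state, 44.5% of the 4357 calls were kept with their direction and 40 genes were called in the opposite one. With *STING* knockout cells 55.8% were kept and 24 were opposite. *SERPINH1* read 0.96, 1.18 and 0.73 in the *REST* knockout cells and 0.16, 0.94 and 0.94 in the *STING* knockout cells. *COL1A2* read 0 in each library and 0, 0.036 and 0.018, and *CD274* 5.57, 4.77 and 4.02 and 2.21, 1.86 and 3.23. *PRRX1* read 0.79, 0.81 and 0.86 and 0.22, 0.18 and 0.16 in them, and 4.28, 4.79 and 5.31 in H524, another *NEUROD1*-type line given the same vector and doxycycline. *TAP1* read 3.25, 3.19 and 3.07 in *REST* knockout, 0.46, 0.42 and 0.95 in *STING* knockout and 3.12, 3.33 and 3.56 in H524 cells.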

How the data were processed

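RNA was made into libraries with the Illumina Stranded mRNA Prep. According to the labels and the study's methods, the authors used cutadapt for trimming, STAR for alignment against hg19, RSEM for gene quantification and the TMM scaling of edgeR (versions not given in the sources used here). The deposited values are log2 RPKM per gene, and low values showed an offset of 1 before the log2 step.

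Groups came from the labels. Genes that reached 1 in 3 or more of the 18 libraries were fitted with 1 mean per group in limma 3.58.1 (R 4.3.3), with a variance trend and Benjamini-Hochberg adjustment over all genes tested (two-sided). The contrasts were the end states, the parental cells, their difference and each line's response. The last was added after the data were seen. The count method of the study could not be used on log2 values. An exact permutation test of 3 against 3 libraries cannot go below 0.10, so none is given. The fit was tested on simulated data. Whole reads were recovered in 6057 genes (tolerance 0.06 reads) to compare replicate spread with sampling noise. Gene positions are GRCh37 (GENCODE).

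Gene lists and comparisons were chosen with earlier results of these data known. Genes named individually were the up to 12 called genes with the largest end state difference per line and up to 8 per class, with non-overlapping groups and a mean of at least 2 in the higher group, together with members of 43 lists. Alternatives covered pseudocount, filter, normalization, variance model, baseline, H82 subline and each library left out. The mouse KP1 table was not used here. Some genes are not reported here.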

Additional observations from a re-analysis of the deposited data

Results flagged for a closer look

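The groups held 3 libraries each, which is too few for a test of single outlying libraries. Differences between the responses of the lines were tested directly, as the end state difference minus the parental difference, and 6680 of 14531 genes differed. For named genes each value below is that departure on the log2 scale with its SE and limma adjusted *P*, and no explanation was tested.

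The departure was toward H69 for *NOTCH3* (5.52, SE 0.39, limma adjusted *P* = 7.53e-09) and *NOTCH1* (2.56, SE 0.33, limma adjusted *P* = 6.54e-06). It was also toward H69 for *SERPINH1* (10.72, SE 0.64, limma adjusted *P* = 1.32e-09), *PTGER2* (10.03, SE 0.43, limma adjusted *P* = 3.24e-11) and *VIM* (6.04, SE 0.51, limma adjusted *P* = 6.28e-08). It was toward H82 for *HES1* (-5.25, SE 0.51, limma adjusted *P* = 3.14e-07), *PCSK1* (-12.37, SE 0.35, limma adjusted *P* = 3.47e-13), *ESRP1* (-9.97, SE 0.70, limma adjusted *P* = 7.68e-09) and *MEST* (-13.31, SE 0.19, limma adjusted *P* = 3.24e-16). *CD274* (-2.34, SE 0.24, limma adjusted *P* = 6.76e-07) and *TGFB2* (-6.35, SE 0.47, limma adjusted *P* = 1.61e-08) departed toward H82 too. With a pseudocount of 0.1 the departures of *NOTCH1* (0.73, limma adjusted *P* = 0.124) and *CD274* (-0.80, limma adjusted *P* = 0.15) were not called. With the vector cells without doxycycline as the baseline the departure of *SERPINH1* was 5.08 (limma adjusted *P* = 6.1e-06), its H82 level being already low in those cells, and that of *NOTCH1* was 3.91 (limma adjusted *P* = 6.29e-08).

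In data outside the main comparison, library 49 of the H69 vector cells without doxycycline held *MSN* at 7.15. The 3 parental H69 libraries read 0, 0.38 and 0 for *MSN*. The gene is high in parental H82, and the origin of this signal was not tested.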

How the results depend on the processing

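No paired analysis was possible because the library numbers in the labels run through the series and none is shared between the groups compared.

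The counts rest on the threshold and, less, on the scale. At an absolute difference of at least 2, 1352 genes were called between end states, 2546 between parental cells and 2827 for the departure, with 363 carried, 121 reversed, 574 emerged and 1394 converged, while 2382 genes responded in H69 and 1317 in H82. With a pseudocount of 0.1 in place of 1, 5512 genes were called between end states, 7716 between parental cells and 7498 for the departure. Of these settings' classes, 2379 genes were carried, 990 reversed, 1447 emerged and 3174 converged. At this pseudocount 6682 genes responded in H69 and 4865 in H82, and the ratio of the end state to the parental SD was 0.706. That ratio was 0.700 with vector cells without doxycycline as the baseline and library 49 left out, a choice made after seeing the data. With *REST* knockout cells as the H82 end state 2811 genes were called, and with *STING* knockout cells 3726. The share of end state calls that were higher in H69 was 48.1%, and it was 50.9% after quantile normalization and 50.8% after median centering.

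Leaving out 1 library at a time gave 4058 to 4523 end state calls, 6421 to 6603 parental calls and 6532 to 6828 departures. Over the same sets carried genes ranged from 1481 to 1747, reversed from 553 to 600, emerged from 1381 to 1523 and converged from 3026 to 3273. The SD ratio ranged from 0.714 to 0.742, the H69 responses from 5505 to 5618 and the H82 responses from 3739 to 3870. Without H82 end state library 8, 86.4% of the end state calls were kept, the lowest share of any library.

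Among genes described in the text, 14 end state differences that were called in either comparison changed sign with another H82 subline, while 24 lost their call without changing sign with *REST* and 13 with *STING* knockout cells. The sign changed with *REST* knockout cells for *NOTCH1* (-1.56), *HEYL* (-0.11), *JAG1* (-0.64), *SYP* (-3.08), *UCHL1* (0.30), *MYCN* (0.0017), *KRT8* (1.87), *KRT18* (0.55), *ITGAV* (0.066), *HOXC12* (-0.21) and *MSLN* (0.089). It changed with *STING* knockout cells for *COL8A1* (1.53), *CNN1* (3.02, not called with the H82 end state) and *TGFB2* (0.32). The call of *COL3A1* was lost without H82 library 8 (2.66, limma adjusted *P* = 0.0571), with a pseudocount of 0.1 (limma adjusted *P* = 0.148) and with libraries 52, 53 and 54 averaged (limma adjusted *P* = 0.13). With that pseudocount *ACTA2* (limma adjusted *P* = 0.138) and *MAGEA1* (limma adjusted *P* = 0.294) also lost their calls, as did the departures of *NOTCH1* (limma adjusted *P* = 0.124) and *CD274* (limma adjusted *P* = 0.15), while *INSM1* (-1.87), *CHGA* (-1.30), *CDH1* (-1.42) and the parental difference of *CD274* (-2.86; -1.155 after quantile normalization) were called. With the H69 libraries averaged *DLL4* (limma adjusted *P* = 0.0583) and *MAGEA1* (limma adjusted *P* = 0.196) lost their calls. Without H82 library 8 *UCHL1* (-0.88) and *ACTA2* (0.9987) fell below the threshold, as did *ACTA2* without library 9 (0.9965) and *SYP* without library 7 (0.98), while *B2M* (1.18) and *MCM2* (-1.11) were called without library 8. *MAGEA1* lost its call without library 52, 53, 54, 7 or 9 (0.88 to 1.13). The cause of these changes was not tested.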

Other observations

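Imprinted genes, of which only the copy from one parent is normally expressed, had differed in the parental cells, 10 of 17 being higher in H69 and 2 in H82. In the end states 4 were higher in H69 and 3 in H82, and 9 had fallen in H69. *H19*, a noncoding RNA of growing tissue, read 7.41, 7.36 and 7.43 in the H69 end state and 11.70, 10.24 and 12.36 in that of H82, after 11.72, 12.45 and 12.70 and 3.36, 0 and 0 in the parental cells. *PHLDA2*, a placental growth regulator, stayed the higher in H69, at 10.27, 10.23 and 10.31 against 4.54, 4.81 and 5.31. *PEG10*, a retrotransposon-derived gene, read 8.12, 8.12 and 8.08 in H69 and 5.65, 4.61 and 5.24 in H82. These imprinted genes did not move as a block between the lines.

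A few genes kept to one line in every state. Listed at 2 or more in all 9 H69 libraries and at 0 in all 9 H82 libraries were 5 genes, *FABP5*, *HMX1*, *MAGEA9B*, *PRTN3* and *RNY3*, and 2 genes, *PAGE5* and *PDE6H*, showed the opposite pattern. They were chosen by these values. The homeobox factor genes *HMX2* and *HMX3*, which are also tuft cell markers, were higher in the H69 end state, *HMX2* at 4.73, 4.79 and 5.14 against 0.27, 0 and 0. Of 12 tuft cell markers 3 were at 0 in all H69 end state libraries and 4 in those of H82.

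Other gene families were counted as well. Of 400 zinc finger genes tested, 35 were higher in the H69 end state and 37 in that of H82, and of 211 solute carrier genes 26 and 51. Of 35 protocadherins, 11 were higher in H69 and 2 in H82. The shares called of these families were 18.0%, 36.5% and 37.1%, beside 30.0% over all genes tested.

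In H69 vector cells without doxycycline some interferon and antigen presentation genes stood below their parental level. *HLA-C* read 1.88, 1.13 and 1.28 there and 4.62, 4.86 and 4.89 in parental H69, and *OAS3* 3.29, 3.33 and 3.66 and 5.14, 5.00 and 5.34. With these cells as the baseline, 6511 genes were called between the lines in place of 6499.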
